A study of Mus musculus with 12 samples.

Results

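The costimulatory and checkpoint genes described here were measured in mouse bone-marrow-derived macrophages. They are 7 of the 24552 rows of a count table by gene symbol: Cd274, Cd80 and Cd86 of the B7 family, Tnfsf9, Cd40 and Tnfrsf8 of the TNF and TNF receptor families, and Slamf1 of the SLAM family. They were chosen by symbol, with earlier results of these data known. The study asks what loss of Gpr31b, the mouse gene for the G protein-coupled receptor GPR31, changes in macrophages. The 4 groups were Gpr31b knockout (KO) cells given LPS and IFN-γ (M1), KO cells left unstimulated (M0), wild-type (WT) M1 cells and WT M0 cells, each with 3 libraries of polyadenylated RNA. The labels used here give no sex, age, strain, knockout allele or length of stimulation. They also do not say whether a library stands for an animal of its own, so p-values refer to the spread among libraries, which may be technical.

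A T cell that meets its antigen on another cell also reads surface ligands that raise or restrain its response. CD80 and CD86 on the presenting cell bind CD28 and CTLA-4, and PD-L1, the product of Cd274, binds PD-1 and restrains the T cell. CD40 receives a signal from CD40 ligand on activated T cells and drives macrophages and dendritic cells to raise such ligands. TNFSF9 signals to CD137 on T cells, TNFRSF8 (CD30) is a receptor for CD153, and SLAMF1 binds itself on neighbouring cells and also bacterial components. LPS acts through TLR4 and NF-κB, and IFN-γ through JAK kinases and IRF1, the classical route to PD-L1 in macrophages.

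Library totals ran from 372878 to 585465 counts, and the 7 rows together held 409 counts in KO M1, 11 in KO M0, 390 in WT M1 and 14 in WT M0, 0.0157% of all counts. The Gpr31b row held 0 counts in all 6 KO libraries, 2 counts in each WT M1 library and 0 in each WT M0 library. These counts cannot check the M0 labels, and in M1 they are too few for more than a weak check. The summed level of 12 macrophage markers lay at 579 to 748 CPM in KO M1, 529 to 946 in KO M0, 574 to 647 in WT M1 and 719 to 812 in WT M0, where CPM are counts made comparable between libraries by their totals and TMM factors. The sums overlapped between states in KO, while in WT every M1 sum lay below every M0 sum. Of 10 macrophage markers tested, 5 were called higher in M1 and 2 lower in KO, and 4 higher and 2 lower in WT. The sums thus hold rows that moved both ways. Lyz2 summed to 108 counts in KO M1 against 469 in KO M0, and 82 in WT M1 against 452 in WT M0. Cd14 summed to 76 counts in KO M1 against 8 in KO M0, and 75 in WT M1 against 10 in WT M0. Of 12 dendritic cell markers, 8 held a count, and their sum was 492 to 722 CPM in KO M1 against 29.4 to 53.6 in KO M0, and 563 to 674 in WT M1 against 33.7 to 47.2 in WT M0. Most of the M1 sum was the Xcr1 row, with 656 counts in KO M1 against 33 in KO M0, and 662 in WT M1 against 42 in WT M0. Clec9a, near the opposite 3′ end of Clec1a, went the other way, with 0 counts in KO M1 against 29 in KO M0 (edgeR adjusted p = 0.00509), and 1 in WT M1 against 17 in WT M0 (not called). Siglech held 0 counts in both M1 groups, 3 in KO M0 and 6 in WT M0, and Flt3, Zbtb46, Cd209a and Dpp4 were at 0 in all 12 libraries. The T-cell rows Cd3d, Cd3e and Cd3g, among 7 of 9 T-cell rows, were at 0 too. The remaining T-cell rows were Lck, with 10 counts in KO M0 alone, and Cd5, with 1 count in WT M0 alone. The part of these marker rows in the results that follow was not tested.

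Values belong to rows and need not be reads of the named strand. The libraries were strand-specific, and the strand setting of the counting was not stated in the sources used here. Of the 2333 rows tested, 65% had an exon of another gene opposite their own exons, and these held 82% of the counts of tested rows. Of the 7 members 2 lie in that position. Exons of Tnfsf9 (chromosome 17, 57105325 to 57107757, plus strand, build GRCm38) face Gm11110, a long intergenic noncoding RNA on the minus strand, over 192 bases, of which 181 are coding. The stretch below is the start of the Tnfsf9 coding sequence, chr17:57105432-57105612, plus strand, with the start codon in capitals. It is shown because its reads cannot be assigned to a gene without the strand.
Tnfsf9: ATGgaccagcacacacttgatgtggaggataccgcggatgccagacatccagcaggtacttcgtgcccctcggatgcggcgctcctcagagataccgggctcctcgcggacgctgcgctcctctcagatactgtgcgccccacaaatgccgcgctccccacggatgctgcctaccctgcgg

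Exons of Cd274 (chromosome 19, 29367455 to 29388095, plus strand) face AC119228.1, an antisense RNA, over 511 bases in 3 coding exons. AC119228.1 has no row of that name in the table. The longest of the 3 stretches, 285 bases at chr19:29380304-29380588, plus strand, is shown for the same reason.
Cd274: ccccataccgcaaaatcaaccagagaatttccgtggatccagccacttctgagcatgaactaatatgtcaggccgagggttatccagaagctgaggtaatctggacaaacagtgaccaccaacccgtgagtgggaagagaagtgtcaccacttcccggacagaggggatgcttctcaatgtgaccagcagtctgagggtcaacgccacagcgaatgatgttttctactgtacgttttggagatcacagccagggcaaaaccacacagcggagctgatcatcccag

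Tnfrsf8 (chromosome 4, 145267137 to 145315164, minus strand) has neither an opposite exon nor an opposite 3′ end within 5000 bases in GENCODE M21. The same holds for Cd40 (chromosome 2, 165055627 to 165072948, plus), Cd86 (chromosome 16, 36603869 to 36666081, minus) and Slamf1 (chromosome 1, 171767127 to 171801184, plus). Cd80 (chromosome 16, 38455561 to 38496335, plus) ends 2012 bases from the opposite 3′ end of Timmdc1.

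The sequence upstream of Tnfrsf8 is shown because this row was silent in M0 and has no opposite partner. It covers the 250 bases before the RefSeq start, chr4:145315165-145315414, minus strand, GRCm38.p6. The first capitals mark a match to the NF-κB motif κB, 168 bases before the start. Its letters are GGGRNWYYCC, where R is A or G, W is A or T and Y is C or T. This match is read on the strand opposite to the one printed. The second capitals mark a match to the AP-1 motif TGANTCA, 132 bases before the start.
Tnfrsf8: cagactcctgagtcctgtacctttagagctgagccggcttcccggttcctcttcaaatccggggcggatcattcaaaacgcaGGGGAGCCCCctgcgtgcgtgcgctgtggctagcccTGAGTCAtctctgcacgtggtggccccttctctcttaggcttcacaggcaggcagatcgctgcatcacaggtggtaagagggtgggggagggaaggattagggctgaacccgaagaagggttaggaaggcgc

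Promoter entries were found for 4 of the 7 members, Cd274, Tnfrsf8, Cd80 and Slamf1, and both strands of the 250 bases were searched. The AP-1 letters were in 6.75% and the κB letters in 3.9% of 32851 RefSeq promoters. Cd80 held an AP-1 match 42 bases before the RefSeq start used. That window, chr16:38458683-38458932, lies inside the Cd80 span given above, not before its first exon. None of the 4 held the interferon-γ motif GAS (TTCNNNGAA, in 7.02% of promoters) or the interferon motif ISRE (2.98%) in this window. A match is a description of letters, not a site in use.

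**Figure D1:**
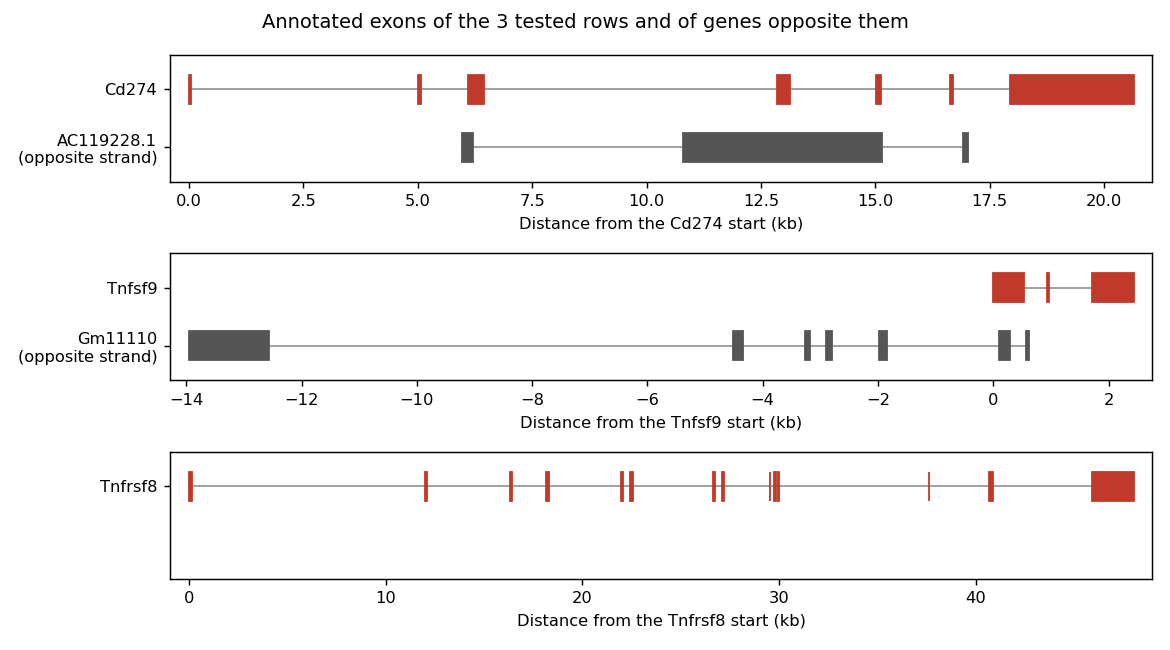
Annotated exons (boxes) of the 3 tested members and of the genes opposite them, by distance in kb from each member's start; grey boxes are exons on the opposite strand. AC119228.1 faces 3 exons of Cd274 and Gm11110 the first exon of Tnfsf9, while Tnfrsf8 has no opposite gene.

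Stimulation raised Cd274, Tnfrsf8 and Tnfsf9 in both genotypes, and Cd40 and Cd86 held nearly all of their few counts in M1. Cd80 was at 0 in all 12 libraries and Slamf1 at 2 counts in 1. In edgeR's quasi-likelihood test, 3 of the 7 members passed the filter on low counts (about 10 counts in at least 3 libraries): Cd274, Tnfrsf8 and Tnfsf9. Cd40, Cd80, Cd86 and Slamf1 had too few counts. Of the rows near that limit, Tnfsf9 with 14 to 27 counts per M1 library passed, while Cd40 with 4 to 20 and Cd86 with 0 to 12 did not. All 3 members tested were called higher in M1 in each genotype, at an adjusted p under 0.05 over all tested rows, where 25.2% of tested rows in KO and 25.7% in WT were called higher. The M1 libraries lay wholly above the M0 libraries for the 3 members in each genotype, as for 28.3% of tested rows in KO and 28.2% in WT. All 3 members passed only through their M1 libraries: the highest M0 library held 2 counts of Cd274, 0 of Tnfrsf8 and 6 of Tnfsf9. Such rows had to differ, so the number called and the lack of overlap give no support of their own. The edgeR adjusted p-values of these members for M1 against M0, given below, carry the same selection. In bulk RNA, fewer cells of a type and less RNA per cell cannot be told apart.

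**Figure D2:**
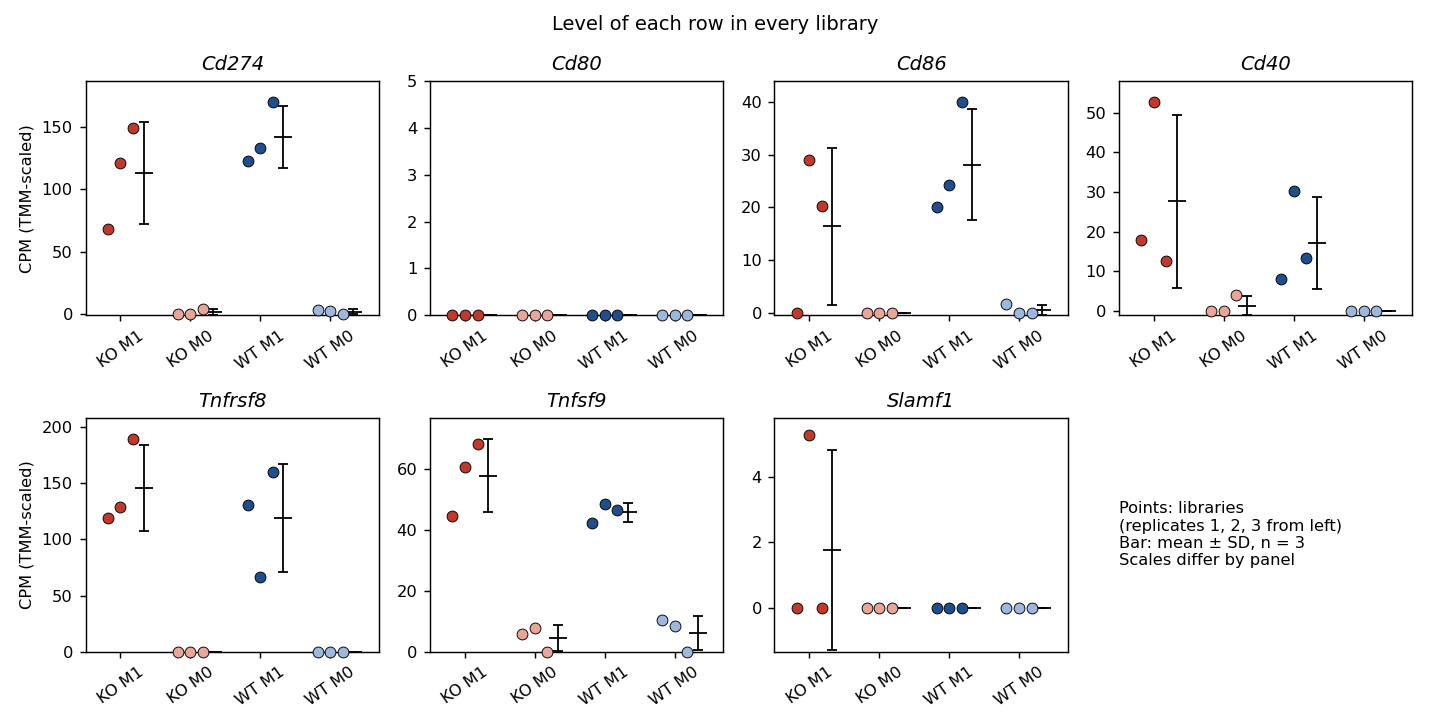
Level of each member in every library (points, replicates 1 to 3 from left, CPM with TMM factors, scales differing by panel) with mean ± SD of 3 libraries beside them. Cd274, Tnfrsf8, Tnfsf9 and Cd40 lie higher in every M1 library than in every M0 library, Cd86 has 1 KO M1 library at 0, and Cd80 lies at 0 throughout.

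Among the B7 ligands, Cd274 held 23, 46 and 59 counts in the KO M1 libraries, against 0, 0 and 2 in KO M0. In WT cells it held 61, 44 and 51 counts in M1, against 2, 1 and 0 in M0. The 2 states did not overlap in either genotype, and the lowest M1 library was KO M1 replicate 1. The level was 113 ± 40.9 CPM in KO M1 and 1.36 ± 2.35 in KO M0, and 142 ± 24.7 CPM in WT M1 and 1.88 ± 1.76 in WT M0 (SD, n = 3 each). As a ratio of summed counts M1 exceeded M0 86.6-fold in KO cells (95% counting interval 23.5 to 723) and 72.5-fold in WT cells (24.4 to 355). The fitted log2 fold change was 6.14 in KO (SE 0.67, 95% interval 4.77 to 7.51, edgeR adjusted p = 3.12e-09) and 6.02 in WT (SE 0.62, 4.74 to 7.29, adjusted p = 9.96e-10). With so few M0 counts single libraries set its size. Without KO M0 replicate 3 the KO M0 group was at 0, and M1 was at least 38.9-fold higher. Without WT M0 replicate 1, which left 1 count in WT M0, the log2 fold change was 6.78 in WT. The opposite-strand RNA cannot be told apart from Cd274 in these counts.

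Cd86, a ligand of CD28 and CTLA-4, held 0, 11 and 8 counts in the KO M1 libraries and 0 in each KO M0 library. In WT cells it held 10, 8 and 12 counts in M1, against 1, 0 and 0 in M0. M1 and M0 were apart in WT, while in KO the M1 replicate 1 library, at 0, equalled the M0 libraries. Over both genotypes its mean level was 18.6 ± 10.7 CPM in M1 and 0.354 ± 0.866 in M0 (SD, n = 6 each, scaled by library size alone), with an exact permutation p of 0.02, two-sided, M1 and M0 labels permuted within genotype. In summed counts M1 was at least 8.57-fold higher than M0 in KO, taken against 3 counts over the M0 group, and 41.8-fold in WT (counting interval 6.95 to 1707). That WT ratio rests on 1 count in WT M0 replicate 1, without which M1 was at least 8.88-fold higher. The KO bound was 5.48-fold without KO M1 replicate 2.

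Cd80, the other CD28 ligand, had no count in any library. A count of 0 over a group of 3 libraries allows up to 2.70 CPM in KO M1, 1.99 in KO M0, 2.66 in WT M1 and 1.91 in WT M0, by counting error alone. The Timmdc1 row beyond its end held 5 counts in KO M1, 0 in KO M0, 1 in WT M1 and 2 in WT M0.

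Tnfsf9, a TNF family ligand, held 15, 23 and 27 counts in the KO M1 libraries, against 3, 4 and 0 in KO M0. In WT cells it held 21, 16 and 14 counts in M1, against 6, 4 and 0 in M0. It was the member with the most M0 counts, and every M1 library lay above every M0 library of its genotype. The level was 57.7 ± 12 CPM in KO M1 and 4.61 ± 4.12 in KO M0, and 45.7 ± 3.16 CPM in WT M1 and 6.34 ± 5.58 in WT M0 (SD, n = 3 each). The log2 fold change was 3.56 in KO (SE 0.75, 95% interval 2.03 to 5.10, edgeR adjusted p = 0.000201) and 2.79 in WT (SE 0.72, 1.32 to 4.27, adjusted p = 0.00178). It was 4.16 without KO M0 replicate 2 and 3.40 without WT M0 replicate 1. The Gm11110 row opposite summed to 11 counts in KO M1, 3 in KO M0, 8 in WT M1 and 2 in WT M0, too few for the fit. It too held more counts in M1, and its share in the Tnfsf9 row was not tested.

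Tnfrsf8, the receptor CD30, was silent in both M0 groups. Its row held 40, 49 and 75 counts in the KO M1 libraries and 0 in each KO M0 library. In WT cells it held 65, 22 and 48 counts in M1 and 0 in each M0 library. The level was 146 ± 38.0 CPM in KO M1 and 119 ± 47.7 CPM in WT M1 (SD, n = 3 each). Against 3 counts over the M0 group, M1 was at least 74.0-fold higher in KO (edgeR adjusted p = 3.96e-10) and at least 62.7-fold higher in WT (adjusted p = 9.24e-10). Counts of 1 to 12 in the table were even in 60.9% of cases, so that counts may not be independent. With all counts halved these bounds were 37.4-fold in KO and 31.6-fold in WT. Of 27 tested rows with counts in all 6 M1 libraries and none in the 6 M0 libraries, Tnfrsf8 ranked 5, with 299 counts, after Cxcl9 with 1482, Bcl2l14 with 1212, Gbp2 with 585 and Ifit2 with 462.

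Cd40, the receptor for CD40 ligand, held 6, 20 and 5 counts in the KO M1 libraries, against 0, 0 and 2 in KO M0. In WT cells it held 4, 10 and 4 counts in M1 and 0 in each M0 library. Every M1 library was above every M0 library, with KO M1 replicate 2 standing highest. Over both genotypes its mean level was 19.0 ± 14.2 CPM in M1 and 0.813 ± 1.99 in M0 (SD, n = 6 each, library size alone), with an exact permutation p of 0.005, two-sided, the smallest that 400 arrangements can give. M1 exceeded M0 21.0-fold in KO (counting interval 5.34 to 181) and at least 8.37-fold in WT. Without KO M0 replicate 3, which holds both KO M0 counts, it was at least 9.42-fold in KO, and without KO M1 replicate 2 it was 11.3-fold (2.47 to 105). Without WT M1 replicate 2 the WT bound was 5.26-fold. The KO M1 mean was 27.7 ± 21.8 CPM with TMM factors and 15.2 CPM without replicate 2.

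For rows as low as these, 667 untested rows held 40 to 60 counts in all, a range set after the counts of Cd40 (51) and Cd86 (50) were seen. Of them 14.1% reached an exact permutation p under 0.05 with M1 higher, and 7.5% reached the smallest p. A fit with no filter on low counts called both rows higher in M1. Cd40 had edgeR adjusted p = 0.0119 in KO and 0.00336 in WT, and Cd86 had edgeR adjusted p = 0.00423 in KO and 0.00355 in WT. In that fit 5.04% of 11497 rows were called higher in each genotype. This share is over all rows with a count, most of them below the filter. The share among rows with 40 to 60 counts was not taken for this fit, so how rare such calls are at this level is not known. Slamf1, with 2 counts in KO M1 replicate 2 alone, gave an exact permutation p of 1.

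**Figure D3:**
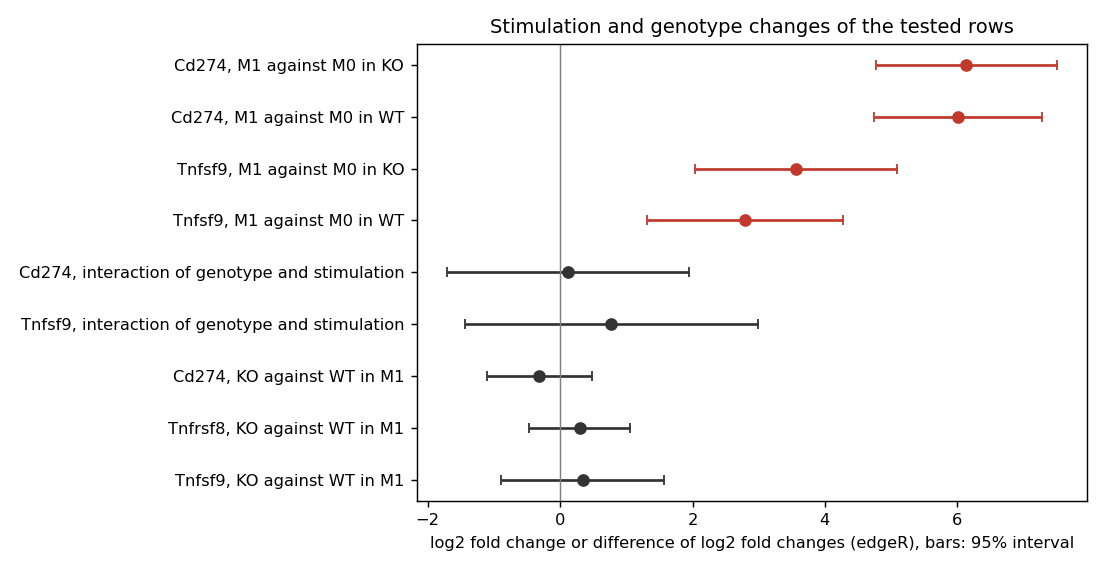
Log2 fold changes (points) with 95% intervals (bars) from edgeR for the tested members: M1 against M0 in KO and in WT, the interaction of genotype and stimulation, and KO against WT in M1. Stimulation of Tnfrsf8 is left out because its M0 libraries are at 0; the intervals for M1 against M0 lie above 0, and those for the interaction and for KO against WT include 0.

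Per kilobase of exon, the same 3 members led in both M1 groups. In KO M1 the level was 44.8 ± 9.32 CPM per kb for Tnfsf9, 42.1 ± 11 for Tnfrsf8 and 31.1 ± 11.3 for Cd274, ahead of Cd40 at 8.13 ± 6.39 and Cd86 at 4.47 ± 4.06. In WT M1 it was 39.1 ± 6.83 CPM per kb for Cd274, 35.4 ± 2.45 for Tnfsf9 and 34.4 ± 13.8 for Tnfrsf8, ahead of Cd86 at 7.66 ± 2.86 and Cd40 at 5.05 ± 3.40. The libraries of the first 3 overlapped among themselves in each group, and so did those of Cd40 and Cd86, while the lowest library of the first 3 lay above the highest of the other pair. The low levels rest on single libraries: in CPM, the Cd86 mean in KO M1 was 16.4, and 10.1 without replicate 2 or 24.6 without replicate 1, and the Cd40 mean in WT M1 was 17.2, and 10.7 without replicate 2. In M0 the order was led by Tnfsf9, at 3.57 ± 3.19 CPM per kb in KO and 4.91 ± 4.32 in WT, with libraries down to 0.

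None of Cd274, Tnfrsf8 and Tnfsf9, the members that passed the filter, differed between KO and WT beyond the spread of the libraries. Cd40, Cd86 and Slamf1 were too low for this test within a state, and Cd80 had no count to compare. In M1 the log2 fold change of KO over WT was -0.32 for Cd274 (95% interval -1.10 to 0.47, edgeR adjusted p = 0.935). It was 0.30 for Tnfrsf8 (-0.47 to 1.06, adjusted p = 0.939) and 0.34 for Tnfsf9 (-0.89 to 1.57, adjusted p = 0.971). These intervals leave room for about a doubling of Tnfrsf8 and more for Tnfsf9, so they do not show equal levels. The edgeR test called 0 of 2333 rows in M1, or 0%, with 164 rows (7.03%) at an unadjusted p under 0.05, and DESeq2 called 0. In M0, 151 rows (6.47%) had an unadjusted p under 0.05 and 1 row (0.0429%) was called, Perm1, which is no member and was lost in DESeq2. There the log2 fold change was -0.44 for Cd274 (-2.87 to 1.99) and -0.43 for Tnfsf9 (-2.25 to 1.39), both with edgeR adjusted p = 1. Tnfrsf8 was at 0 in both genotypes.

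For the low members, KO M1 held 31 Cd40 counts against 18 in WT M1, a ratio of 1.75 (counting interval 0.948 to 3.32). Single libraries set it, at 0.942 (0.402 to 2.11) without KO M1 replicate 2 and 2.78 (1.25 to 7.0) without WT M1 replicate 2. KO M1 held 19 Cd86 counts against 30 in WT M1, a ratio of 0.643 (0.342 to 1.18), or 0.411 (0.163 to 0.917) without KO M1 replicate 2. With all libraries both intervals include 1, and they leave out the spread between libraries. Over both states, exact two-sided permutation tests of KO against WT gave unadjusted p of 0.37 for Cd274, 0.6 for Tnfrsf8, 0.34 for Tnfsf9, 0.45 for Cd40, 0.4 for Cd86 and 1 for Slamf1, 6 tests in all.

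The response to stimulation was compared between genotypes by the interaction. It was 0.12 for Cd274 on the log2 scale (95% interval -1.71 to 1.95, edgeR adjusted p = 1) and 0.77 for Tnfsf9 (-1.44 to 2.98, adjusted p = 0.970). Of 2333 rows, edgeR called 0 (0%), with 144 (6.17%) at an unadjusted p under 0.05, and DESeq2 called 0. Tnfrsf8 has no interpretable interaction, since both M0 groups were at 0.

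The other genes of these pathways were taken from 8 lists of 142 symbols, 136 of them in the table, and 16 non-members passed the filter. In KO 10 were called higher in M1, 1 lower and 5 were not called; in WT 9 were higher, 0 lower and 7 not called. Of all tested rows 25.2% were called higher in KO and 25.7% in WT. Listed rows that pass the filter only through their M1 libraries had to differ, so these counts give no support of their own. None of the 16 was called between KO and WT in either state or for the interaction.

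Among TNF receptors, Tnfrsf1b, a receptor for TNF, had a log2 fold change of 1.5 in KO (SE 0.47, edgeR adjusted p = 0.00873) and 2.16 in WT (SE 0.48, adjusted p = 0.00038). The KO call was lost when libraries were scaled by size alone (adjusted p = 0.0694). Tnfrsf22, a decoy receptor for TRAIL, was lower in KO M1 by a log2 fold change of -2.50 (adjusted p = 0.0284, lost under 4 other settings), with -0.82 in WT (adjusted p = 0.453). The only SLAM row tested was Slamf7, which lies opposite Gm37787. It rose, with a log2 fold change of 4.24 in KO (SE 0.80, edgeR adjusted p = 4.45e-05) and 3.83 in WT (SE 0.81, adjusted p = 0.000186).

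Of 8 other checkpoint rows tested, 4 rose in both genotypes. Called higher in both genotypes were 19.7% of all tested rows with an opposite exon and 19.6% of those with an opposite 3′ end. The share was 29.9% for rows with neither and 29.2% for rows not matched to the annotation. H2-T23, the mouse Qa-1 molecule read by NKG2A receptors, rose by a log2 fold change of 3.92 in KO (SE 0.64, edgeR adjusted p = 5.81e-06) and 3.87 in WT (SE 0.66, adjusted p = 1.09e-05). Fgl2, a secreted fibrinogen-like protein, was at least 43.3-fold higher in KO M1 than in KO M0 and had a log2 fold change of 3.73 in WT (SE 0.60, adjusted p = 5.24e-06). Lgals9, galectin-9, past whose end the opposite 3′ end of Nos2 lies, was at least 32.5-fold higher in KO and had a log2 fold change of 4.69 in WT (SE 0.78, adjusted p = 9.15e-06). Icam1, an adhesion ligand for LFA-1 that lies opposite Gm47079, had a log2 fold change of 4.4 in KO (SE 0.92, adjusted p = 0.000188) and 2.63 in WT (SE 0.80, adjusted p = 0.00700, but 0.0824 without WT M1 replicate 2). Lgals3, Sirpa, Lilrb4a and Pilra were not called in either genotype.

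Of the genes that control PD-L1, 3 of 13 were tested. Stat2, a transcription factor of the interferon response, had a log2 fold change of 4.72 in KO (SE 0.63, adjusted p = 1.64e-07) and 4.53 in WT (SE 0.63, adjusted p = 3.90e-07). Irf1, which lies opposite Gm17334 and activates Cd274, had a log2 fold change of 2.68 in KO (SE 0.56, adjusted p = 0.000175) and 2.97 in WT (SE 0.56, adjusted p = 4.26e-05). Stat3, which lies opposite Stat5a, had a log2 fold change of 3.61 in KO (adjusted p = 0.0131, lost without KO M1 replicate 2 or KO M0 replicate 3) and 1.69 in WT (adjusted p = 0.126), and the difference between genotypes was not called. The opposite 3′ end of Il23a lies within 5000 bases of Stat2. Of 20 TNF receptor signalling genes only Nfkb2 passed the filter, with a log2 fold change of 0.96 in KO (SE 0.21, adjusted p = 0.000237) and 1.0 in WT (SE 0.21, adjusted p = 0.000181). It lies opposite AC114539.1 and Psd. Of 10 T-cell counter-receptors only Cd160 was tested, opposite Pdzk1, and it was not called.

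**Figure D4:**
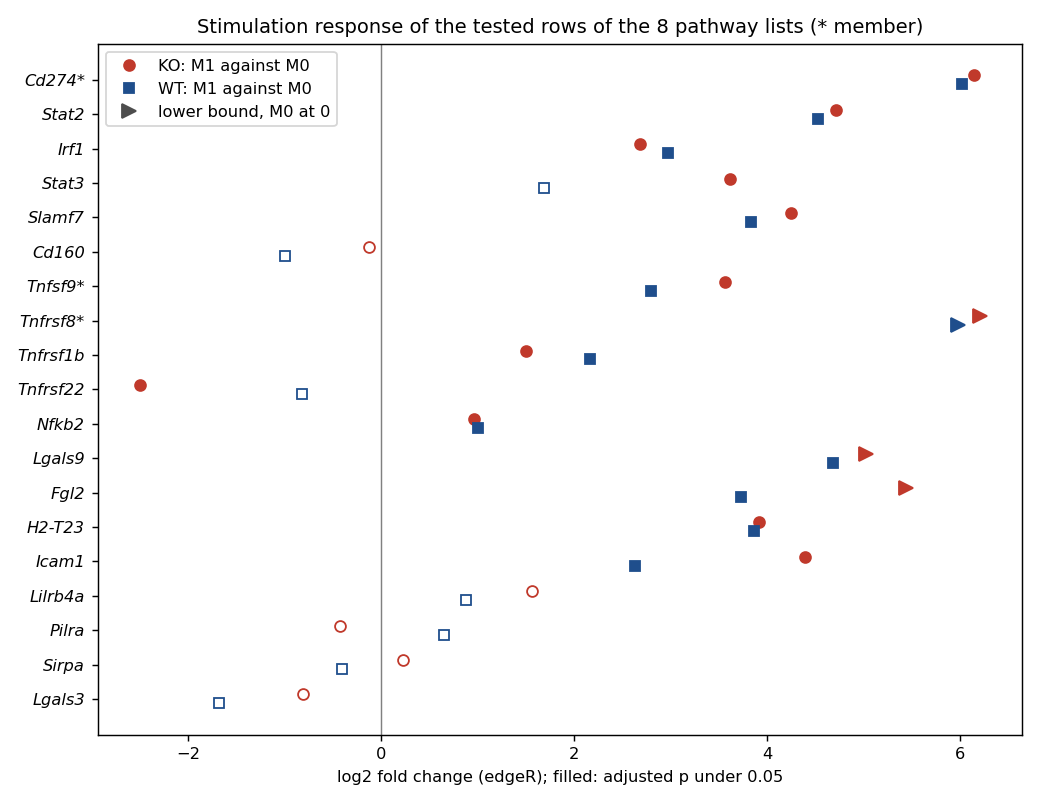
Log2 fold change for M1 against M0 (horizontal axis) of the 19 tested rows of the 8 lists, in KO (circles) and WT (squares), filled where the edgeR adjusted p is under 0.05; triangles are lower bounds where all M0 libraries are at 0, and asterisks mark members. Tnfrsf22 is the only filled point below 0, in KO.

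The rows most like each tested member were found by Pearson's correlation of log2 CPM over the 12 libraries, which fall into 2 states that every responding row shares. For Cd274 they were Mast4 (0.990, opposite Cd180), Slfn5os (0.987, opposite Slfn5 and Unc45b) and Zfp276 (0.987, opposite Vps9d1 and Fanca), and 167 of 2333 rows exceeded 0.95. For Tnfrsf8 they were Rarg (0.996), Ptgs2 (0.995) and Trnt1 (0.994, opposite Crbn), and 184 rows exceeded 0.95. For Tnfsf9 they were H2-T23 (0.972), Specc1 (0.966) and Ccnd1 (0.965, opposite LTO1), and 10 rows exceeded 0.95. Between members the correlation was 0.98 for Cd274 with Tnfrsf8, 0.917 for Cd274 with Tnfsf9 and 0.925 for Tnfrsf8 with Tnfsf9.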

How the data were processed

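Polyadenylated RNA from 12 libraries, 3 in each of 4 groups, was made into strand-specific libraries, per the labels' protocols. The authors deposited raw counts, 1 whole number for each symbol in each library. The mm10 build, HTSeq, Trimmomatic, FastQC and DESeq2 are named per the submitters' processing notes, without versions. The aligner, the annotation and the strand setting are not given in the sources used here. All columns of the table could be matched to a sample.

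The test was that of edgeR 4.0.16 (R 4.3.3): filterByExpr on the 4 groups left 2333 rows, TMM factors (0.806 to 1.21) scaled the libraries, and a robust quasi-likelihood model was fitted to all 12, with Benjamini-Hochberg adjustment over all tested rows. Standard errors and intervals were derived from each log2 fold change and its F statistic. The fit was tried on counts simulated from rows that had passed the filter, with known changes put in. Rows below the filter or silent in M0 were not simulated, so that trial does not cover them. Exact permutation tests used CPM by library size alone. Counting intervals (95%, exact) take counts as independent and, like the floor of 3 counts, cover counting error only; reads amplified by PCR and lacking molecular identifiers are not independent. Replicate libraries correlated at 0.924 to 0.958. Symbols were matched to GENCODE M21 on GRCm38, and an opposite gene was noted where 20 or more exon bases overlapped or its 3′ end lay within 5000 bases. Of the table's symbols, 26 were date-like and 2 row names were repeated. Promoters are from RefSeq, GRCm38.p6.

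Named rows were the members, their opposite genes, listed rows called in both genotypes, the 3 rows most like each tested member, and Gpr31b; other rows were named after their values were seen. Members and lists were chosen with earlier results of these data known. Of the listed genes, 1 is not reported here and is left out of the list counts. Alternatives were size factors of DESeq2 1.42.0, library size alone, the DESeq2 test, no filter, a replicate block, leaving out each library and halved counts.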

Additional observations from a re-analysis of the deposited data

How the results depend on the processing

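Of 159 refits of the members' 9 stimulation results under 18 settings, 159 kept direction and call; Tnfsf9 did not pass the filter with counts halved. Scaling by library size alone moved the median of all rows to -0.46 in KO and -0.53 in WT, and called 393 rows higher and 850 lower in KO, against 588 and 522 with TMM factors, and 397 higher and 881 lower in WT, against 600 and 538. Rows called for KO against WT in M0 were 1, and 0 with library size, DESeq2, the replicate block or halved counts, 4 with no filter and 0 to 2 leaving out a library. In M1 they were 0, and 0 to 1 leaving out a library. Over both states they were 1, and 5 with no filter, 0 with halved counts and 0 to 2 leaving out a library. For the interaction they were 0, and 3 with no filter, 3 with the replicate block and 0 to 3 leaving out a library. The cause was not tested.

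Of the uncalled differences between KO and WT, some changed sign when 1 library was left out; those of Cd274 and Tnfsf9 in M1, Cd274 over both states, the Tnfsf9 interaction and the Cd86 mean CPM did not. Those that did ran, on the log2 scale, from -2.97 to 0.31 for Cd274 in M0, -1.04 to 0.16 for Tnfsf9 in M0, -0.0056 to 0.51 for Tnfrsf8 in M1, -0.35 to 0.25 for Tnfsf9 over both states and -0.64 to 2.64 for the Cd274 interaction. The -2.97 and the 2.64 are fitted with KO M0 at 0 counts, without its replicate 3, and are not interpretable as sizes. In mean CPM over both states they ran from -26.6 to 4.81 for Cd274, -7.10 to 29.2 for Tnfrsf8, -1.63 to 10.2 for Tnfsf9 and -0.95 to 9.13 for Cd40. These means were not weighted by state. Leaving out 1 library thus made M1 and M0 unequal in number within a genotype, and the CPM ranges mix stimulation with genotype. Leaving out KO M0 replicate 1, which held 0 Cd274 counts, moved the Cd274 difference from -10.6 to -0.722. The labels do not say what a shared number marks. Deviations of same-numbered libraries correlated at 0.0413 to 0.120 in KO and 0.0668 to 0.112 in WT between states, and at -0.0248 to 0.173 between genotypes, so not every pair exceeded 0.1 and numbers were not taken as pairs; between states 12 of 12 libraries correlated best with their own number, a hint from the data alone. The replicate block changed no member's call and called 1102 rows in KO and 1113 in WT for stimulation, against 1110 and 1138. At this depth 4 of the 7 members lay below the filter of the main test, and the part of depth in this was not tested.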

Other observations

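Rows of the same pathways that were too low for the fit are given as summed counts over 3 libraries, chosen after their values were seen. Vsir, the checkpoint molecule VISTA, held more counts in M0, with 4 counts in KO M1 against 31 in KO M0, and 2 in WT M1 against 29 in WT M0. Rela, an NF-κB subunit with the opposite 3′ end of Sipa1 within 5000 bases, held 1 count in KO M1 against 22 in KO M0, and 6 in WT M1 against 33 in WT M0. Other rows of its list went the other way. Nfkb1 held 15 counts in KO M1 against 7 in KO M0, and 8 in WT M1 against 3 in WT M0. Nfkbia held 12 counts in KO M1 against 1 in KO M0, and 23 in WT M1 against 5 in WT M0. Relb and Rel held at most 4 counts in any group. Traf1, an adaptor of TNF receptors, held 26 counts in KO M1 and 16 in WT M1, and 0 in both M0 groups. Socs1 held 19 counts in KO M1 and 24 in WT M1, and Socs3 19 in KO M1 and 29 in WT M1, each with 0 in both M0 groups. Pdcd1lg2, the other PD-1 ligand, held 10 counts in KO M1 against 2 in KO M0, and 4 in WT M1 against 1 in WT M0. None of these rows passed the filter on low counts.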
